A study of Homo sapiens with 12 samples.

Results

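The HIST1 locus on chromosome 6 holds its histone genes in subclusters, and the stretch between the 26 Mb and the 27 Mb subcluster was examined as a baseline inside the locus. The gap was taken as chr6:26430000-27190000 of the human genome build NCBI36, 760 kb, and its members were all regions in the deposited ChIP-Seq lists that lay wholly within these limits, whatever their p-value. The 8 lists held 1636159 regions in all, of which 333 were members. No region crossed either limit. Limits given by position alone made no use of the measured values.

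Binding of 4 regulators of histone genes was measured by ChIP-Seq (chromatin immunoprecipitation followed by sequencing) in 2 human cell lines, with 1 library per factor and line and hence no replicates. The lines were hTERT-RPE1, a line of normal epithelial cells from the retinal pigment layer that telomerase keeps dividing, and U2OS, an osteosarcoma line. No treatment is given in the labels. By the methods of the study, the lines were grown in different media, with hygromycin B for hTERT-RPE1 and not for U2OS cells. CASP8AP2, NPAT and E2F1 were precipitated with antibodies set against rabbit IgG, and HINFP with an antibody set against goat IgG. The list of each library gave the number of ChIP sequences and IgG sequences in every region. How many reads each library had in all is unknown here. From the deposited fold changes, the depth of a ChIP library over that of its IgG library was between 0.858 and 1.23. Where lists with rabbit IgG from the same line held a region with the same ends, the IgG counts were identical (22 such pairs of regions in hTERT-RPE1 and 30 in U2OS cells), so the IgG counts of CASP8AP2, NPAT and E2F1 in a line are not independent.

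Replication-dependent histone genes are transcribed in S phase. NPAT, a substrate of cyclin E-Cdk2, activates them, CASP8AP2 (also called FLASH) acts with NPAT in the histone locus body and in histone mRNA processing, HINFP is a zinc finger protein that binds histone H4 promoters, and E2F1 is a transcription factor of genes needed for S phase. The stretch between the subclusters is known for butyrophilin genes, whose products act in T cell biology, and for many tRNA genes, which RNA polymerase III transcribes. In ChIP-Seq, regions that collect reads in the precipitation and in the IgG control alike have a ratio of ChIP to IgG near 1, and show the background of the method.

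In the order of the RefSeq genes on a later build (GRCh38.p14), 84 genes stood between H4C8, the last histone gene of the first group, and H2BC11, the first of the next. Of these, 47 were tRNA genes, 15 were lncRNA genes, 11 were pseudogenes, 2 were transcribed pseudogenes (BTN2A3P among them) and 9 were protein-coding. The protein-coding genes were the butyrophilins BTN3A2, BTN2A2, BTN3A1, BTN3A3, BTN2A1 and BTN1A1, then HMGN4, a nucleosome-binding protein, ABT1, an activator of basal transcription, and ZNF322, a zinc finger protein. This order gives names only. No member could be placed in a gene, exon or intron, since the annotation used here is of a later build than the lists and coordinates were not converted.

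RefSeq promoter sequences were found for 7 of the 9 protein-coding genes. In the 250 bases before their starts, read on both strands, none held GCGGGAA, a core motif of E2F sites. That motif was in 5.59% of all 27305 promoters, in 4 of 32 promoters of the histone genes before the gap and in 3 of 18 after it. GTCCGC, a core of HINFP sites, was in 0 of 7, in 10.3% of all promoters, in 2 of 32 and in 3 of 18. The octamer ATTTGCAT, found in H2B promoters, was in 0 of 7, in 1.66% of all promoters, in 14 of 32 and in 8 of 18. With 7 promoters these shares were too few for a comparison, and a match is not a binding site. The promoters of BTN3A2, ABT1 and ZNF322 are shown as examples from the first and the last of these protein-coding genes in the RefSeq order, and that of H2BC11 for the histone gene that follows them. Each is the 250 bases before the start of the gene from RefSeq (GRCh38.p14, BTN3A2 and ABT1 on the plus strand, ZNF322 and H2BC11 on the minus strand), 5′ to 3′, and capitals mark a match to one of the 3 motifs. Of the promoters shown, only that of H2BC11 had one. The promoter of H4C8, the histone gene before these protein-coding genes, is not shown and had no match either.
BTN3A2: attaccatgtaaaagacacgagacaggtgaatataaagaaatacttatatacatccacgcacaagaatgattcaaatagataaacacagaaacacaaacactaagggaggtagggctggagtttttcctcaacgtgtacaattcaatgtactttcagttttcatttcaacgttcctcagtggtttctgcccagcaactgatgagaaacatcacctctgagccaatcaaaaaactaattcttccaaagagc
ABT1: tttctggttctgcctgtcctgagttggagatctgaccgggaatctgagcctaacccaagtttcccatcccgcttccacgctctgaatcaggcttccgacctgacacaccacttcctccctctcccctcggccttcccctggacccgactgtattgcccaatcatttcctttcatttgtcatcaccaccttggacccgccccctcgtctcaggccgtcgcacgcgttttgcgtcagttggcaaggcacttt
ZNF322: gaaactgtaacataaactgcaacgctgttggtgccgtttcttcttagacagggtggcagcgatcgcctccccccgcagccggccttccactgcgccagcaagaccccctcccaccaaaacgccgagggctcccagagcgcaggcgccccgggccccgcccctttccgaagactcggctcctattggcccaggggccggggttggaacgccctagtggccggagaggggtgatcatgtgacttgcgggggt
H2BC11: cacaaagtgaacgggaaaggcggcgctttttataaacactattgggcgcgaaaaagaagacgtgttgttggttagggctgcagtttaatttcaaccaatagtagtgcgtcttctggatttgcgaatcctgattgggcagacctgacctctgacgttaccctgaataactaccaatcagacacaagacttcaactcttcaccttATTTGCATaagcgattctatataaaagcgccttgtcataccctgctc
The share of G and C was 37.6% for BTN3A2, 56.8% for ABT1, 65.6% for ZNF322 and 44.0% for H2BC11.

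No member of the gap was a significant peak in any of the 8 libraries. A region counted as significant where its deposited fold change exceeded 2 and its deposited p-value was under 0.00001, after the methods of the study. Over all listed regions, this threshold was passed in hTERT-RPE1 cells by 0.112% of CASP8AP2 regions, 0.259% of NPAT regions, 0.393% of HINFP regions and 0.707% of E2F1 regions. In U2OS cells it was passed by 0.0927%, 0.108%, 0.5% and 0.748% of them, in the same order. The count of 0 of 333 allows a share of up to 0.901%, and within single lists of up to 4.29% to 13.6%, so these counts could not tell the gap from the background of the lists. The same threshold was passed by 68 of 355 regions in the 310 kb before the gap (the 26 Mb subcluster) and by 41 of 738 regions in the 760 kb after it (the 27 Mb subcluster). The latter was made as long as the gap and not set by the places of genes. Its values are therefore not those of histone genes alone. In single lists, significant peaks made up 4.65% to 35.3% of the regions of the 26 Mb subcluster and 1.37% to 8.77% of those of the 27 Mb subcluster.

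Significant peaks stood close to both ends of the gap. On the left, the nearest significant peaks of CASP8AP2, NPAT and HINFP lay 35 to 36 kb outside the limit in both lines. The NPAT peak there, at chr6:26392689-26395043 in U2OS cells, had 452 ChIP and 51 IgG sequences. For E2F1 the nearest significant peak on this side was 289 kb away in both lines. On the right, a significant peak lay 17.1 to 17.6 kb outside the limit in the CASP8AP2, NPAT and E2F1 lists of both lines. That of NPAT in U2OS cells, at chr6:27207046-27210540, had 485 ChIP and 61 IgG sequences. HINFP had its nearest peak on this side 24.8 kb away in U2OS cells and 710 kb away in hTERT-RPE1 cells. Regions just inside and just outside the limits were mostly weak. In the NPAT list of U2OS cells, the last region inside the gap had a Height of 9 and the first one after it had a Height of 8.

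The density of listed regions was lower in the gap than in either subcluster and, in 6 of 8 lists, close to the rest of chromosome 6. In hTERT-RPE1 cells the gap held 34 CASP8AP2 regions, or 4.47 per 100 kb (95% exact Poisson interval 3.10 to 6.25, as all intervals here covering counting error only). NPAT had 64 members, or 8.42 per 100 kb (6.49 to 10.8), and E2F1 had 57, or 7.5 per 100 kb (5.68 to 9.72). HINFP, with the fewest, had 22, or 2.89 per 100 kb (1.81 to 4.38). Since the number of regions listed differed between libraries, these densities are comparable only within a list. In U2OS cells there were 38 CASP8AP2 members, or 5.00 per 100 kb (3.54 to 6.86), and 70 NPAT members, or 9.21 per 100 kb (7.18 to 11.6). HINFP had 23 members, or 3.03 per 100 kb (1.92 to 4.54), and E2F1 had 25, or 3.29 per 100 kb (2.13 to 4.86). The whole lists ran from 39603 regions (HINFP in U2OS cells) to 478015 (NPAT in U2OS cells), and no order of the factors was read from these densities.

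Set over the rest of chromosome 6, outside the gap and both subclusters, the density of HINFP regions was higher in the gap in U2OS cells. This ratio depended on which regions were kept. In U2OS cells the ratio of densities was 3.40 (95% exact interval 2.15 to 5.12), from 3.03 regions per 100 kb in the gap and 0.891 in the rest. In hTERT-RPE1 cells it was 1.48 (0.923 to 2.24), an interval that includes equal densities. With only regions under 10 IgG sequences in the gap and the rest, the HINFP ratio was 0.838 (0.272 to 1.96) in U2OS cells, on the other side of 1, and 0.512 (0.206 to 1.06) in hTERT-RPE1 cells. This cut was chosen after seeing the data. HINFP members had a median of 21 and 31 IgG sequences, against 4 and 3 in the rest, so the cut by itself lowers the ratio. With a Height of at least 10 the HINFP ratio was instead 14.6 (8.69 to 23.3) in U2OS and 6.07 (3.30 to 10.3) in hTERT-RPE1 cells. For NPAT the ratio in U2OS cells was 0.688 (0.536 to 0.870), but 0.955 (0.744 to 1.21) without a stretch of 213 kb in the gap that was empty in all lists. Empty stretches in the rest were kept, so this cut raises the ratio. In hTERT-RPE1 cells the NPAT ratio was 0.885 (0.681 to 1.13). The ratios of CASP8AP2 were 0.925 (0.640 to 1.29) in hTERT-RPE1 and 0.797 (0.563 to 1.09) in U2OS cells, and those of E2F1 were 1.16 (0.879 to 1.51) and 1.14 (0.738 to 1.69). All 4 of these intervals include 1. With the limits of the gap moved inward by 50 kb, the ratio of E2F1 in U2OS cells was 0.842 (0.481 to 1.37), on the other side of 1, and the interval of CASP8AP2 in U2OS cells (0.390 to 0.891) no longer included it. Against the 26 Mb subcluster, the density in the gap was 0.298 to 0.552 times as high over the 8 lists, and the interval included 1 only for HINFP in U2OS cells. Against the 27 Mb subcluster it was 0.343 to 0.633 times as high, and the interval included 1 only for HINFP in hTERT-RPE1 cells. No test between libraries was made.

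Chromosome 6 was also divided into windows as long as the gap, of which 215 held regions. By the number of HINFP regions, the gap ranked 13 in U2OS cells, where the median window held 4 regions, and 34 in hTERT-RPE1 cells, where the median window held 15. In the other 6 lists it ranked between 57 and 144. The windows share a library and their ranks are a description.

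The members were weak regions. Height, the signal at the summit, is at least 8 in each list, and its median in the gap was 9 in the CASP8AP2, NPAT and E2F1 lists of both lines. In the rest of chromosome 6 the median was 8 or 9. The highest Height in the gap was 15 for CASP8AP2 and 21 for NPAT in hTERT-RPE1 cells, and 17 and 19 in U2OS cells, whereas the NPAT regions of the 26 Mb subcluster reached 208 and 264. E2F1 reached 32 in hTERT-RPE1 and 19 in U2OS cells. HINFP stood apart from the other factors. Its median Height was 11 (8 to 12) in hTERT-RPE1 cells and 17 (13 to 22) in U2OS cells, against 8 in the rest of chromosome 6 in both lines, with a maximum of 18 and 37.

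The raw ratio, (ChIP sequences + 1) over (IgG sequences + 1), sets each region beside its IgG control, without correction for depth. Regions were listed only with a Height of at least 8, whereas their IgG counts had no such floor. The listing itself therefore favours ratios above 1, and such a ratio does not by itself show binding. For NPAT the median ratio in the gap was 2.45 (95% interval of the median 1.75 to 3.40) in hTERT-RPE1 cells and 2.40 (2.0 to 3.0) in U2OS cells, against 2.50 and 2.40 in the rest of chromosome 6. CASP8AP2 had 2.25 (1.63 to 3.33) against 2.2 in U2OS cells. The median ratios of NPAT in both lines and of CASP8AP2 in U2OS cells were thus within their intervals of the rest. CASP8AP2 in hTERT-RPE1 cells had 1.61 (1.29 to 2.25) against 2.25. E2F1 had 1.91 (1.57 to 2.35) against 2.25 in hTERT-RPE1 cells and 1.78 (1.40 to 2.67) against 2.0 in U2OS cells. For these 3 lists the median was lower in the gap, and the interval reached the value of the rest in each.

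HINFP had the lowest ratios. Its median raw ratio in the gap was 0.562 (0.418 to 1.43) in hTERT-RPE1 cells and 1.00 (0.741 to 1.64) in U2OS cells, against 2.60 and 2.25 in the rest of chromosome 6. Both intervals lie below the value of the rest. The ratio was under 1 in 15 of 22 members in hTERT-RPE1 cells and in 11 of 23 in U2OS cells, so that the goat IgG control had more reads than the HINFP precipitate in these regions. The HINFP library was 1.00 times as deep as its control in hTERT-RPE1 cells and 0.858 times as deep in U2OS cells, where the median deposited fold change, which includes depth, was 1.17. Over all 8 lists, 54 of 333 members had a ratio under 1. The 27 Mb subcluster, a stretch set by its length and not by genes, had like HINFP medians of 0.577 and 1.04, while the 26 Mb subcluster had 1.67 in both lines.

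HINFP members had many IgG sequences. They had a median of 12.5 ChIP and 31 IgG sequences in hTERT-RPE1 cells, where the regions in the rest of chromosome 6 had 10 and 3. In U2OS cells they had 18 ChIP and 21 IgG sequences against 10 and 4. At least 20 IgG sequences were counted in 13 of 22 members (59.1%, against 0.604% in the rest) and in 14 of 23 (60.9%, against 1.94%). The 27 Mb subcluster, as a stretch set by its length, was like the gap, with 67.6% and 49.1% of its HINFP regions, and the 26 Mb subcluster had 16% and 5.88%. By the number of such regions the gap ranked 2 among the 215 windows in both HINFP lists. The CASP8AP2, NPAT and E2F1 lists had 1 to 5 members with at least 20 IgG sequences each, and their median IgG count was 4 to 7. In hTERT-RPE1 cells these were 7.81% to 8.82% of the members, against 0.255% to 0.817% in the rest. In U2OS cells they were 1.43% to 8.0%, against 0.545% to 1.96%. By their number the gap ranked 4 among the windows in each of these lists of hTERT-RPE1 cells, and 10 to 24 in U2OS cells. A higher share than in the rest was thus not particular to HINFP. HINFP was the single factor with goat IgG as its control, so the antibody and the control serum cannot be told apart here.

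**Figure D1:**
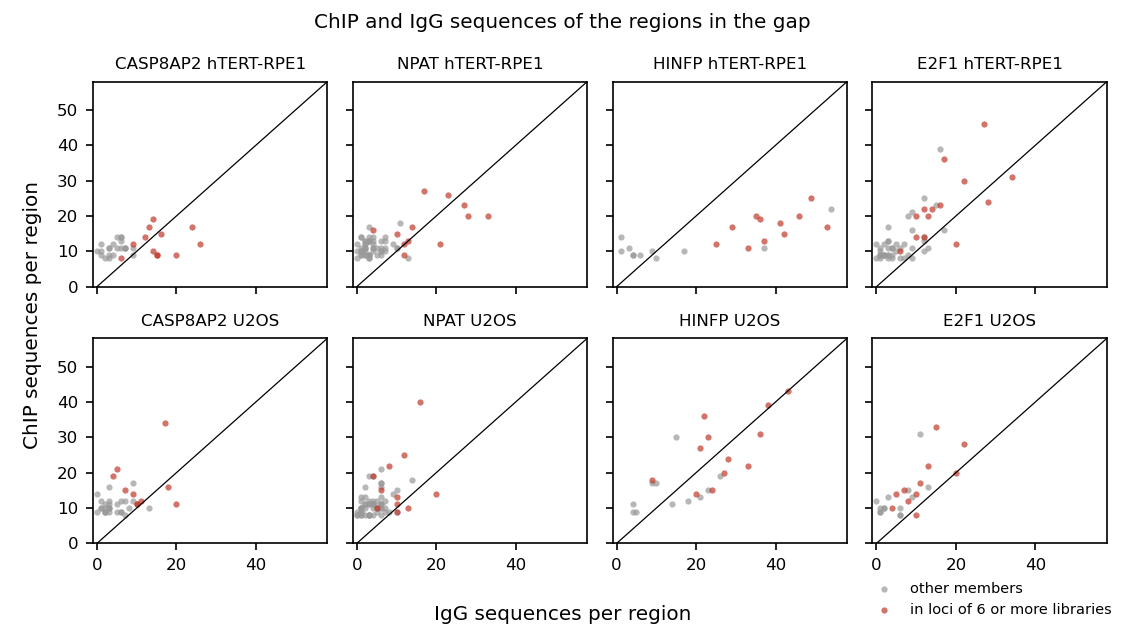
ChIP sequences (vertical axis) against IgG sequences (horizontal axis) of the members in each library, with the line of equal counts; red points are members in loci listed in 6 or more libraries. HINFP members in hTERT-RPE1 cells reach 54 IgG sequences and lie mostly under the line, while most CASP8AP2 and NPAT members have few IgG sequences and 8 to 20 ChIP sequences.

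Most places in the gap were listed by 1 library and a few by nearly all. Joined where they overlapped by at least 1 bp, the 333 members formed 195 loci. Of these, 146 were listed in 1 library, 49 in 2 or more and 12 in 6 or more, 4 of them in all 8. The 12 loci covered 10728 bp, 1.41% of the gap, yet held 93 members, 27.9% of all. They amounted to 15.8 loci per Mb in the gap, against 38.7 per Mb in the 26 Mb subcluster, 38.2 per Mb in the 27 Mb subcluster and 1.28 per Mb in the rest of chromosome 6. Such loci were therefore common along the whole locus. In the gap none of their 93 regions was significant. In the 26 Mb subcluster 59 of 179 were (33.0%), and in the 27 Mb subcluster 18 of 235 (7.66%). In the rest of chromosome 6 it was 43 of 2133 (2.02%), a share from which 0 of 93 could not be told apart.

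The loci listed in 6 or more libraries held most of the members with many IgG sequences, although 3 of the 12 had no region of one factor in either line. Of the 44 members with at least 20 IgG sequences, 39 lay in these 12 loci, as did 38 of the 54 with a ratio under 1. In hTERT-RPE1 cells the median raw ratio of NPAT was 1.00 (0.724 to 1.46) in the 12 loci and 2.90 (2.25 to 3.75) in the other members. CASP8AP2 had 0.837 (0.625 to 1.29) in them and 2.2 (1.71 to 3.0) outside. For HINFP the ratio was 0.452 (0.353 to 0.583) in the loci, with all 11 of its members there under 1, and 1.43 (0.418 to 5.50) outside. E2F1 differed less, with 1.46 (0.914 to 1.77) and 2.33 (1.80 to 3.33). In U2OS cells the medians in the loci and outside were 1.30 and 2.75 for CASP8AP2, 1.83 and 2.43 for NPAT, 0.932 and 1.64 for HINFP, and 1.5 and 3.08 for E2F1. The ratio was thus lower in the shared loci in each of the 8 lists, though the intervals overlapped in all 4 lists of U2OS cells and for HINFP in hTERT-RPE1 cells. The median ChIP count in the loci was 12 to 25.5, against 10 to 13 in the other members. Every member needed a Height of at least 8, and places with more ChIP reads reach it in more lists. The choice of these loci therefore favours high ChIP counts, and nothing was read from this difference.

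The locus with the most ChIP sequences, at chr6:26645459-26647344, was listed in all 8 libraries and held 14 members. Summed over its members in each library, it had 12 ChIP and 26 IgG sequences for CASP8AP2, 47 and 56 for NPAT, 42 and 78 for HINFP and 54 and 50 for E2F1 in hTERT-RPE1 cells. In U2OS cells these sums were 22 and 30, 33 and 24, 43 and 43, and 28 and 22. The raw ratio was between 0.481 and 1.36 in the 8 libraries, and no library had a clear excess of ChIP reads.

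The other loci of all 8 libraries lay nearby. At chr6:26640866-26641834 the ratio ran from 0.353 for HINFP in hTERT-RPE1 cells (11 ChIP and 33 IgG sequences) to 2.13 for E2F1 in U2OS cells (33 and 15). At chr6:26662014-26663112 it ran from 0.333 for HINFP in hTERT-RPE1 cells (17 and 53) to 3.67 for CASP8AP2 in U2OS cells (21 and 5). HINFP was lowest of the 4 factors in both lines at these 2 loci. At chr6:26664389-26665444 the ratios were 0.541 to 0.733 in all 4 lists of hTERT-RPE1 cells and 1.27 to 4.0 in those of U2OS cells, and did not overlap between the lines. The regions listed there span different bases, and the IgG counts of CASP8AP2, NPAT and E2F1 in a line are not independent. The lists are therefore not separate observations of a difference between the lines. At chr6:27167394-27168339, listed in 7 libraries and not for E2F1 in hTERT-RPE1 cells, the ratios were 0.452 to 1.59. These loci were picked for the number of libraries that listed them, and their ratios are descriptions of single libraries.

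Regions with few or no IgG sequences had the highest ratios. The member with the lowest p-value, 5.85e-05 as deposited and without adjustment, was a CASP8AP2 region in U2OS cells at chr6:26847786-26848103 with 14 ChIP and 0 IgG sequences and a Height of 13. An E2F1 region of the same cells overlapped it, at chr6:26847920-26848298, with 12 and 0 sequences and a deposited p-value of 8.23e-05. No other list had a region that overlapped these. Just before them, hTERT-RPE1 cells had an NPAT region at chr6:26847536-26847782 (9 ChIP and 5 IgG sequences). A CASP8AP2 region of hTERT-RPE1 cells, at chr6:26847403-26847613 (9 and 4), overlapped that NPAT region. Both p-values of the U2OS regions were above the threshold of 0.00001. In hTERT-RPE1 cells, the lowest p-value of E2F1 was at chr6:26584345-26584607 with 12 and 0 sequences, and that of NPAT at chr6:27098021-27098375, also with 12 and 0. For CASP8AP2 in the same cells it was at chr6:26713176-26713414, with 10 and 0 sequences. The 5 regions named here with 0 IgG sequences had ratios of 11 to 15. The lower bound of their ChIP to IgG ratio was 2.24 to 3.32 (95% Clopper-Pearson). These bounds are for single regions and do not allow for the choice of the lowest p-value in each list. HINFP had its lowest p-values at chr6:26491342-26491829 in hTERT-RPE1 cells, with 14 ChIP and 1 IgG sequence, and at chr6:26436203-26436570 in U2OS cells, with 30 and 15. NPAT in U2OS cells had it at chr6:26485661-26486068, with 19 and 3. By the deposited, unadjusted p-values, 134 of 333 members were under 0.05. In single lists this share was 13.6% to 52.0%, and 40.2% to 59.2% in the rest of chromosome 6.

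The regions of greatest Height had IgG sequences as well. The greatest Height of the gap, 37, was that of HINFP in U2OS cells at chr6:26640954-26641364, where 39 ChIP sequences stood against 38 IgG sequences. For E2F1 in hTERT-RPE1 cells the greatest Height was 32, at chr6:26676842-26677264, with 39 and 16 sequences and a ratio of 2.35. NPAT in U2OS cells had 40 and 16 sequences at its highest region, chr6:27095706-27096325, a ratio of 2.41. The most IgG sequences, 54, were counted for HINFP in hTERT-RPE1 cells at chr6:26436105-26436580, with 22 ChIP sequences. In 5 of the 8 libraries the member with the most IgG sequences lay in the locus at chr6:26645459-26647344.

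The members were spread unevenly along the gap. The first 380 kb held 255 of them and the second 380 kb held 78, and the first 380 kb had more in each of the 8 lists. In 10 bins of 76 kb, the counts from left to right were 70, 27, 67, 76, 15, 19, 0, 0, 22 and 37. Bins 1, 3 and 4 held 9 of the 12 loci listed in 6 or more libraries. No list held a region at chr6:26869983-27082570, a stretch of 213 kb or 28.0% of the gap. Chromosome 6 had 9 stretches at least as long that were empty in all lists. Its part in the densities is given with the processing alternatives.

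For each factor, the share of regions that overlapped between the lines was higher in the gap than in the rest of chromosome 6, for NPAT by little. The subclusters had high shares too. Of the HINFP members in hTERT-RPE1 cells, 59.1% overlapped one in U2OS cells, and 52.2% the other way, against 3.71% and 8.41% in the rest of chromosome 6. For E2F1 the shares were 24.6% and 56.0%, against 7.76% and 17.3%. CASP8AP2 had 23.5% (8 of 34) and 21.1% (8 of 38) against 11.0% and 8.44%. NPAT had 18.8% (12 of 64) and 17.1% (12 of 70) against 14.0% and 10.1%, so for these 2 factors the counts were few. In the 27 Mb subcluster the shares were 75.7% and 50.9% for HINFP, 36.7% and 45.2% for E2F1, 44% and 31.8% for CASP8AP2, and 42.1% and 26.2% for NPAT. In the 26 Mb subcluster they were 40% and 64.7% for HINFP, 48.8% and 74.2% for E2F1, 61.4% and 42.3% for CASP8AP2, and 51.4% and 55.1% for NPAT. No test of these differences was made, and the lists of different lines had different IgG libraries.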

How the data were processed

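ChIP-Seq lists of 8 libraries were used (CASP8AP2, NPAT, HINFP and E2F1 in hTERT-RPE1 and U2OS cells). The authors mapped reads to NCBI36 and called peaks in each library by itself. The aligner and caller are not given in the sources used here, nor is the handling of duplicate reads, which can raise the counts of single regions. The deposited counts of ChIP and IgG sequences per region are not normalized. Height, as deposited, is a signal read at the summit. The deposited fold change equals the raw ratio times a constant for each library, and the deposited p-value is not adjusted for multiple regions. The IgG libraries were used only through these counts.

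Members and lists were chosen with earlier results of these data known. The threshold was a p-value under 0.00001 (printed with the opposite sign in the methods and read as an upper limit) and a fold change above 2. Regions wholly inside the limits were counted. The rest of chromosome 6 is the length between the first and last listed region without the gap and subclusters. Densities were given with 95% exact Poisson intervals, ratios of densities with exact conditional binomial intervals, medians with order-statistic intervals, and a count of 0 with the limit that 3 counts give. No test between libraries was possible with 1 library per factor and line, and no p-value was computed. Named regions were those past the threshold, in each library those with the lowest p-value, highest raw ratio, greatest Height and most IgG sequences, and the 5 loci listed in the most libraries, ties by ChIP sequences. The regions of the 2 nearest significant peaks were added after their values were seen. Motifs were counted in the RefSeq promoters of GRCh38.p14. The code was tested on simulated regions. Alternatives were other limits, a Height of at least 10, a pseudocount of 0.5 in place of 1, the deposited fold change, other thresholds, all other chromosomes in place of chromosome 6 and an overlap of 50% of the shorter region. Scripts ran in Python 3.11.15 with scipy 1.17.1, pandas 2.3.3, numpy 2.4.6 and, for figures, matplotlib 3.10.9.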

Additional observations from a re-analysis of the deposited data

Results flagged for a closer look

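The density of the gap over that of the rest of chromosome 6 lay on one side of 1 for HINFP and E2F1 and on the other for CASP8AP2 and NPAT, in both lines. The ratios were 1.48 in hTERT-RPE1 and 3.40 in U2OS cells for HINFP, and 1.16 and 1.14 for E2F1. They were 0.925 and 0.797 for CASP8AP2, and 0.885 and 0.688 for NPAT. The difference between the factors was not tested. With all listed regions of the whole gap set over the rest of chromosome 6, the 95% interval left out 1 for HINFP and NPAT in U2OS cells only. The sides changed with the processing: E2F1 in U2OS cells was at 0.842 with the limits moved inward by 50 kb, 0.767 over all other chromosomes and 0.868 with regions under 10 IgG sequences, where HINFP was under 1 in both lines. CASP8AP2 was at 1.28 in hTERT-RPE1 cells without the stretch that held no member (left out of the gap only), and at 1.05 in U2OS cells with a Height of at least 10.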

How the results depend on the processing

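No paired analysis was possible because there was 1 library per factor and line, and no replicate could be left out. With limits moved inward by 50 kb, regions counted by any overlap, all other chromosomes as the rest, or a pseudocount of 0.5, no value moved beyond its own 95% interval, but the side of 1 and the calls of the density over the rest did change. With the limits inward, the interval left out 1 for CASP8AP2 in U2OS (0.390 to 0.891) and NPAT in hTERT-RPE1 cells (0.523 to 0.960), and with all other chromosomes for CASP8AP2 in U2OS cells (0.416 to 0.807). E2F1 in U2OS cells turned from 1.14 to 0.842 and 0.767 under these. Many of the results that moved did so with a Height of at least 10, a limit that by itself removes regions and lowers their density. The density in the gap was then 0.921 per 100 kb for CASP8AP2, 3.68 for NPAT and 3.68 for E2F1 in hTERT-RPE1 cells, and 1.84, 3.29 and 1.45 in U2OS cells. Over the rest of chromosome 6 the hTERT-RPE1 values were 1.28 (NPAT), 6.07 (HINFP) and 2.17 (E2F1, 1.44 to 3.14), and the U2OS values 14.6 (HINFP) and 2.11 (E2F1, 1.05 to 3.79). There NPAT in U2OS cells was at 0.683 (0.442 to 1.01), an interval that includes 1. With a p-value under 0.0001, 1 CASP8AP2 and 1 E2F1 region in U2OS cells passed. With the deposited fold change, the median for NPAT in U2OS cells was 1.96, since it carries the depth constant of the library. The following alternatives were chosen after seeing the data. Without the stretch that held no member, the density over the rest was 1.23 for NPAT and 1.61 (1.22 to 2.09) for E2F1 in hTERT-RPE1 cells, and 1.11 for CASP8AP2 and 0.955 (0.744 to 1.21) for NPAT in U2OS cells, where the call was lost. The interval then left out 1 also for HINFP in hTERT-RPE1 cells (2.05) and E2F1 in U2OS cells (1.59). The stretch was left out of the gap only, while empty stretches in the rest were kept, which raises each of these ratios. With only regions under 10 IgG sequences, NPAT in hTERT-RPE1 cells was at 0.742 (0.548 to 0.981), and the ratio was 0.827 for E2F1 and 0.512 for HINFP in hTERT-RPE1 cells, and for HINFP in U2OS cells it turned from 3.40 to 0.838 (0.272 to 1.96). HINFP members had many IgG sequences, so this cut by itself lowers the HINFP ratios. Outside the loci of 6 or more libraries, the median raw ratio of E2F1 in U2OS cells was 3.08. Depth limits all of these values: a region needed a Height of 8 to be listed, and 297 of 333 members had 8 to 20 ChIP sequences.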
